A study of Mus musculus with 2 samples.

Results

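The 9 genes described here write, maintain, bind or remove methyl groups on cytosine in DNA, and they were taken from the deposited table of 18888 genes by their symbols. Dnmt1, Dnmt3a, Dnmt3b, Dnmt3l and Uhrf1 are the writers and their cofactors, and Tet1, Tet2, Tet3 and Tdg are the erasers. Each symbol matched 1 row, and all 9 genes passed the filter of at least 1 FPKM (fragments per kilobase of gene length, scaled to the number of mapped fragments) in 1 library or both, as did 12263 genes in all. The RNA came from 46C mouse embryonic stem cells (mESCs), a line with a reporter in the neural gene Sox1, at passages 21 to 24. PB mESCs carried the empty PiggyBac (PB) vector, a transposon that inserts into the genome. PB-TERRA mESCs carried the same vector with telomeric repeats, from which a polyadenylated form of the telomeric RNA TERRA was expressed. Whether either culture came from a single clone, and which promoter drives TERRA, are not given in the sources used here. Both share the parent line, the gelatin-coated plates and the vector. With 1 library for each condition, no spread between cultures can be measured, no p-value is given, and a difference stated here is a difference between 2 libraries.

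In mammals, DNA methylation sits mostly on CpG dinucleotides. DNMT3A and DNMT3B place new methyl groups, helped by the catalytically inactive DNMT3L. DNMT1, which UHRF1 brings to newly copied DNA, restores the pattern after replication. TET enzymes oxidise methylcytosine step by step, and TDG cuts out the most oxidised forms so that base excision repair can put back plain cytosine. mESCs are known for high expression of de novo methyltransferases together with TET1 and TET2, and for tolerating the loss of DNA methylation.

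The depth behind these values was read from their steps, since a low value in a short gene is a whole multiple of what 1 read is worth. The steps gave 24775000 reads for the PB library and 24832500 reads for the PB-TERRA library, and 84.9% and 88.7% of the low values used lay within 0.2 reads of a whole number. Each change is the log2 of the PB-TERRA value divided by the PB value, after 0.1 FPKM was added to both. Each comes with an exact 95% binomial (Clopper-Pearson) interval of the ratio of the estimated reads, which covers counting error only. All 8 mESC markers were past the filter, with 27.02 FPKM as the lowest value, and their summed level was 2621.81 FPKM in PB mESCs and 2545.92 FPKM in PB-TERRA mESCs. Markers of other cells had low sums, some of which differed between the libraries. The 6 primitive endoderm markers, all higher in PB-TERRA, summed to 10.33 and 14.18 FPKM, the 6 fibroblast markers (4 higher) to 19.60 and 23.78, and the 4 early neural markers (2 higher) to 29.10 and 23.15. The 5 primed-state markers (1 higher) summed to 73.90 and 74.24 FPKM, and the 6 of the 7 listed 2-cell-like markers in the table (1 higher, 4 lower) to 2.84 and 1.41. None of these markers was at the floor of 0.01 FPKM, and the lowest value was 0.02. The part of these markers in the results below was not tested. In RNA from a whole culture, more cells of a type and more RNA per cell cannot be told apart.

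None of the 9 genes differed by a large factor between the libraries, and the directions were split. Tet1, Tet2 and Dnmt3a were higher in PB-TERRA mESCs by 10.3% to 16.6%, beyond counting error. Their order depended on the processing, since against genes of like GC content and length the log2 ratio was 0.14 for Dnmt3a, 0.13 for Tet2 and 0.12 for Tet1. Dnmt3b and Dnmt3l were lower by more than counting error, with log2 ratios of -0.17 and -0.081, and so was Tdg, at -0.27 from few reads. Of these, the calls for Dnmt3l and Tdg were lost with both libraries scaled to the same summed FPKM (-0.043 and -0.23), which left only Dnmt3b below 0. The call for Dnmt3l was also lost against genes of like length (-0.034), and that for Tdg was lost when its reads were summed with those of its copy Gm9855 (-0.047, 95% interval -0.098 to 0.0034). The maintenance pair Dnmt1 and Uhrf1 had log2 ratios of -0.0067 and 0.027, and the intervals of both included 0, though that of Uhrf1 lay above 0 under 2 other ways of processing given with its values. No member (0 of 9) reached an absolute log2 ratio of 1, a size reached by 0.913% of all genes past the filter (0.44% higher and 0.473% lower), and none (0 of 9) reached 0.5, a size reached by 4.67%.

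**Figure D1:**
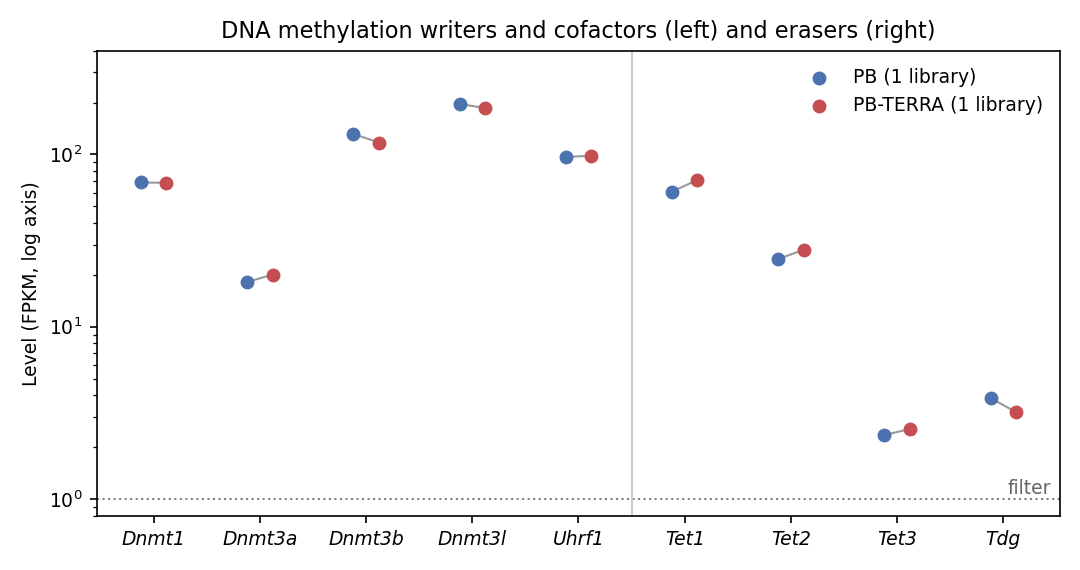
Level of each gene in FPKM (log axis) in the PB library (blue) and the PB-TERRA library (red), with writers and cofactors on the left and erasers on the right. Each point is 1 library without an error bar. The levels run from 2.35 FPKM for Tet3 to 196.62 FPKM for Dnmt3l, and the paired points lie close together for every gene.

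FPKM is scaled to the gene length in the table, so levels compare between genes only as far as that length fits their transcripts. For Dnmt3a the length is 9140 bases, and shorter transcripts would make its level too low, which was not tested. Dnmt3l had the highest level of the 9 genes in both libraries and Tet3 the lowest. In PB the order from high to low was Dnmt3l, Dnmt3b, Uhrf1, Dnmt1, Tet1, Tet2, Dnmt3a, Tdg and Tet3. The order in PB-TERRA differed in 1 place, where Tet1 (71.04 FPKM) stood above Dnmt1 (68.46 FPKM), while in PB Tet1 had 60.90 FPKM and Dnmt1 68.78. Without replicate libraries it cannot be said which neighbours in this order differ. Among all genes past the filter Dnmt3l lay at percentile 97.1 of the level, Dnmt3b at 95.1, Dnmt1 at 90.1 and Tet1 at 89.7. Tdg lay at 22.1 and Tet3 at 15.3. The place of Tdg is uncertain, because its copy Gm9855 had 87.66 FPKM in PB and 85.40 FPKM in PB-TERRA. How reads were divided between Tdg and Gm9855 is not stated.

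The promoters of Tet1, Dnmt3b and Dnmt3l are shown because, in the values as deposited, Tet1 had the largest increase, Dnmt3b the largest decrease among members with at least 500 reads in each library, and Dnmt3l the highest level. The sequences are from RefSeq on GRCm38.p6 and hold 250 bases before and 50 bases after an annotated start of transcription, written 5′ to 3′ on the strand of the gene. Capitals mark CpG, the dinucleotide on which these enzymes act. For Dnmt3l the first of 3 annotated starts is given. For Tet1 the start in RefSeq is at chr10:62887324, whereas GENCODE places the 5′ end of the gene at chr10:62908996. Which start of Tet1 is used in these cells was not tested.
Tet1, chr10:62887275-62887574, minus strand: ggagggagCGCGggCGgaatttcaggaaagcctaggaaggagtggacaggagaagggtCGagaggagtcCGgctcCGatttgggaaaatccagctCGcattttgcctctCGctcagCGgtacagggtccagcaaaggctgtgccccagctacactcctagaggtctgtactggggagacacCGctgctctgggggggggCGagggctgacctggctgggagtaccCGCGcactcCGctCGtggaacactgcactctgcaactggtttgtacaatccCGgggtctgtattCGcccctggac
Dnmt3b, chr2:153649199-153649498, plus strand: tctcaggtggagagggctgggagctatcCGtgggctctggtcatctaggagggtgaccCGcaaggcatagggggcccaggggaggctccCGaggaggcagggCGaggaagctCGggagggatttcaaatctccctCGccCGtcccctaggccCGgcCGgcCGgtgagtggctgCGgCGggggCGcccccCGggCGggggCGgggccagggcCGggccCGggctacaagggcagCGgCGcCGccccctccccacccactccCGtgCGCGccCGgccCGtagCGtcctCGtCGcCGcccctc
Dnmt3l, chr10:78042037-78042336, plus strand: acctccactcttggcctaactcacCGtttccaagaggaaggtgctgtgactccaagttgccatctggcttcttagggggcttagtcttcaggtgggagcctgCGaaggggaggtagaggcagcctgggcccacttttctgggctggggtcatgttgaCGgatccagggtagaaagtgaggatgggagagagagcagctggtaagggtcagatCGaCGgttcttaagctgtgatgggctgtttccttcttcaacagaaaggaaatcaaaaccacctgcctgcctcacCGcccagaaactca

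The Tet1 window holds 17 CpGs, a number reached or passed by 31.4% of the 32851 RefSeq promoters of this length. The Dnmt3b window holds 30 CpGs, reached or passed by 11.7% of them. The Dnmt3l window holds 6 CpGs, and the other starts of Dnmt3l hold 4 and 3, all below the median of 7 over all promoters. The 9 genes have 16 annotated windows in all. Tet2 has the most CpGs, with 57 (0.152% of all promoters have as many), and 12 of the 16 windows are at or above the median. Dnmt3l, the only member with every annotated window below that median, also had the highest level of the 9 genes. The 3 starts of Dnmt3a, of which the third gives the short form known from mESCs, hold 46, 47 and 18 CpGs. The table has 1 value per gene, so the starts of Dnmt3a, Dnmt1, Dnmt3l and Uhrf1 cannot be told apart in these data.

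Dnmt3b, the main de novo methyltransferase gene here, had 131.59 FPKM in PB mESCs and 117.26 FPKM in PB-TERRA mESCs. These values stand for an estimated 13367 and 11942 reads. The PB-TERRA library was the lower of the pair, with a log2 ratio of -0.17 (95% interval -0.20 to -0.13). Of all genes past the filter, 17.2% had a log2 ratio this low or lower. The transcript of Dnmt3b shares 11.4% of its 50-base stretches with Dnmt3c, a germline methyltransferase gene next to it on chromosome 2 for which no row was found, so a small part of its reads could be split.

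Dnmt3a, the other de novo enzyme, had 18.18 FPKM in PB mESCs and 20.07 FPKM in PB-TERRA mESCs, from 4065 and 4499 reads. It was higher in PB-TERRA, opposite to Dnmt3b, with a log2 ratio of 0.14 (95% interval 0.081 to 0.20). A ratio this high or higher was found for 18.1% of all genes. At the gene lengths used, the level of Dnmt3b was thus 7.24 times that of Dnmt3a in PB and 5.84 times in PB-TERRA. The ratio of Dnmt3a to Dnmt3b was 0.138 and 0.171. These values would change if shorter transcripts of Dnmt3a prevailed, which was not tested. Summed over both, de novo enzyme transcripts had 149.77 FPKM in PB mESCs and 137.33 FPKM in PB-TERRA mESCs, with a log2 ratio of -0.13.

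Dnmt3l, the inactive partner that stimulates both enzymes, had 196.62 FPKM in PB mESCs and 185.87 FPKM in PB-TERRA mESCs. Its reads were 7599 and 7205, and its log2 ratio was -0.081 (95% interval -0.13 to -0.033). The level of Dnmt3l was 1.49 times that of Dnmt3b in PB and 1.59 times in PB-TERRA.

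Dnmt1, the maintenance methyltransferase, had 68.78 FPKM in PB mESCs and 68.46 FPKM in PB-TERRA mESCs, from 8909 and 8889 reads. The interval of its log2 ratio ran from -0.049 to 0.036. Uhrf1, the E3 ubiquitin ligase that binds hemimethylated CpG and recruits DNMT1, had 96.62 and 98.44 FPKM, from 8196 and 8372 reads. Its interval ran from -0.017 to 0.071. With the deposited scaling a difference of either gene was not detectable at this depth. For Uhrf1 this depended on the processing, since its interval lay above 0 after genes of like GC content and length were taken off (0.071, 95% interval 0.027 to 0.12) and with both libraries scaled to the same summed FPKM (0.065, 95% interval 0.021 to 0.11). The level of Uhrf1 was 1.40 times that of Dnmt1 in PB and 1.44 times in PB-TERRA. The transcript of Uhrf1 shares 18.0% of its 50-base stretches with Gm5648, for which no row was found.

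Together the catalytic methyltransferases Dnmt1, Dnmt3a and Dnmt3b had a summed level of 218.55 FPKM in PB mESCs and 205.79 FPKM in PB-TERRA mESCs (log2 ratio -0.087). Dnmt3b made up 60.2% of this sum in PB and 57.0% in PB-TERRA. Dnmt1 made up 31.5% and 33.3%, and Dnmt3a 8.32% and 9.75%. The share of Dnmt3a rests on a gene length of 9140 bases. Dnmt3b therefore held the largest share in both libraries, though a smaller one in PB-TERRA.

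Tet1, the dioxygenase most abundant in mESCs, had 60.90 FPKM in PB mESCs and 71.04 FPKM in PB-TERRA mESCs. With 14445 bases it is the longest of the 9 genes and had the most reads, 21623 and 25283. Its level was 16.6% higher in PB-TERRA, with a log2 ratio of 0.22 (95% interval 0.20 to 0.25), and 9.78% of all genes past the filter had a ratio this high or higher. The log2 ratio of Tet1 was 0.14 against genes of like length and 0.12 against genes of like GC content and length. Tet2 had 24.68 FPKM in PB mESCs and 27.97 FPKM in PB-TERRA mESCs, from 5647 and 6416 reads. It was higher by 13.3%, a log2 ratio of 0.18 (95% interval 0.13 to 0.23).

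Tet3, the TET enzyme known best from the oocyte and zygote, had 2.35 FPKM in PB mESCs and 2.55 FPKM in PB-TERRA mESCs. Its 628 and 684 reads gave a log2 ratio of 0.11 with an interval from -0.039 to 0.28, so that a difference was not detectable at this depth. All 3 TET genes had the same sign, a direction shared by 48.6% of all genes past the filter. Their summed level was 87.93 FPKM in PB mESCs and 101.56 FPKM in PB-TERRA mESCs (log2 ratio 0.21). The make-up of this sum hardly differed. Tet1 held 69.3% in PB and 69.9% in PB-TERRA, Tet2 28.1% and 27.5%, and Tet3 2.67% and 2.51%.

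Set side by side, TET transcripts were more abundant relative to methyltransferase transcripts in PB-TERRA. The summed TET level was 0.402 of the summed level of Dnmt1, Dnmt3a and Dnmt3b in PB and 0.494 in PB-TERRA. Tet1 alone had 0.463 of the level of Dnmt3b in PB and 0.606 in PB-TERRA, with a log2 difference of 0.39. These ratios are formed within a library, so they do not depend on the scaling between libraries, but they do depend on gene length and GC content. The log2 difference of Tet1 to Dnmt3b was 0.33 after the medians of genes of like length were taken off, and 0.25 after those of genes of like GC content and length.

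**Figure D2:**
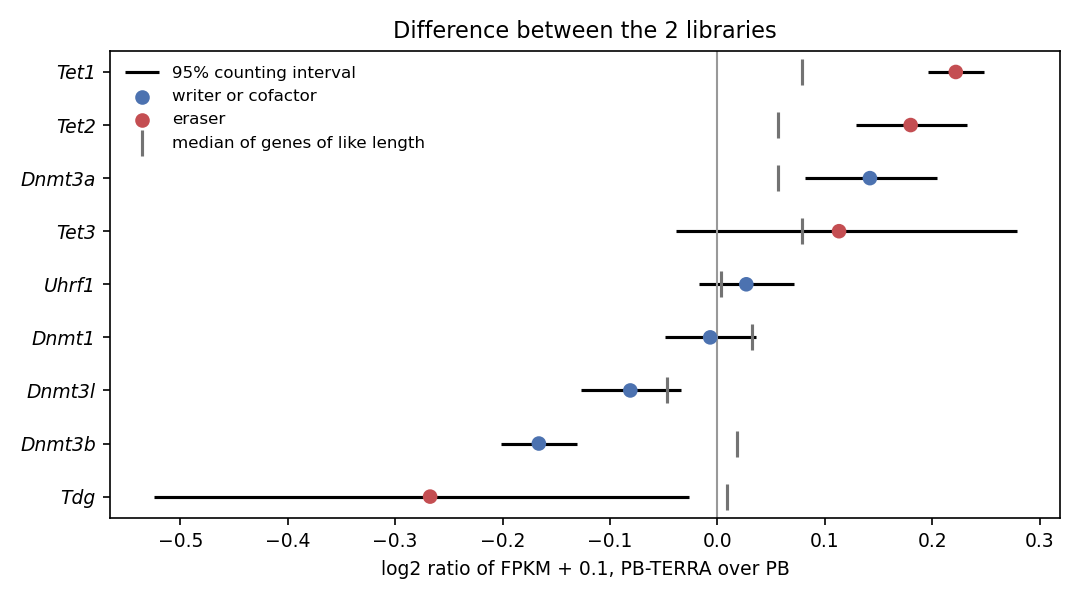
log2 ratio of FPKM + 0.1, PB-TERRA over PB, for each gene (points; writers and cofactors blue, erasers red), with the 95% counting interval of the estimated reads (black lines) and the median log2 ratio of genes of like length (grey ticks). Tet1, Tet2 and Dnmt3a lie above 0 with their whole interval and above their tick, and Dnmt3b lies below 0 and below its tick.

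Counting intervals are narrow in libraries of this depth, so that lying on 1 side of 0 is common. Over all genes past the filter the interval lay above 0 for 18.3% and below 0 for 17.4%. Of the 9 members it lay above 0 for 3 and below 0 for 3, and it included 0 for 3. With both libraries scaled to the same summed FPKM, it lay above 0 for 25.1% and below 0 for 12.2% of all genes, and above 0 for 4 and below 0 for 1 of the members. Among genes with at least 500 reads in each library, 43.8% had an interval on 1 side of 0, and among the 8 members with that many reads 5 did. With the deposited scaling, the ribosomal protein genes Rpl19 and Rplp0 also had an interval on 1 side of 0. No other such gene was looked at here, and no other scaling was computed for Rpl19 and Rplp0. Rpl19, the internal control of the study's quantitative PCR, had 1466.58 and 1405.13 FPKM (log2 ratio -0.062, 95% interval -0.086 to -0.033), and Rplp0 had 1575.34 and 1371.70 FPKM (log2 ratio -0.20, 95% interval -0.22 to -0.18). In the values as deposited, the difference of Rplp0 was larger than that of Dnmt3b, and the size of the Tet1 difference was close to it. No value of Rplp0 against genes of like length was computed, so whether this order holds there is not known.

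Gene length moved with these differences. The 4 longest members, Tet1, Tet3, Tet2 and Dnmt3a (14445, 10907, 9350 and 9140 bases), had the 4 largest log2 ratios. The shorter ones, Dnmt3l (1674 bases), Tdg (3218), Uhrf1 (3538), Dnmt3b (4214) and Dnmt1 (5342), had ratios from -0.27 to 0.027. Over the 9 genes, which share the same 2 libraries, Spearman's rho between log2 ratio and length was 0.83 and Pearson's r with log2 length was 0.79. Over all genes past the filter these were 0.18 and 0.087. The part of gene length in the members' differences was not tested, but each member can be set beside genes of like length, sorted into 50 bins of about 245 genes.

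**Figure D3:**
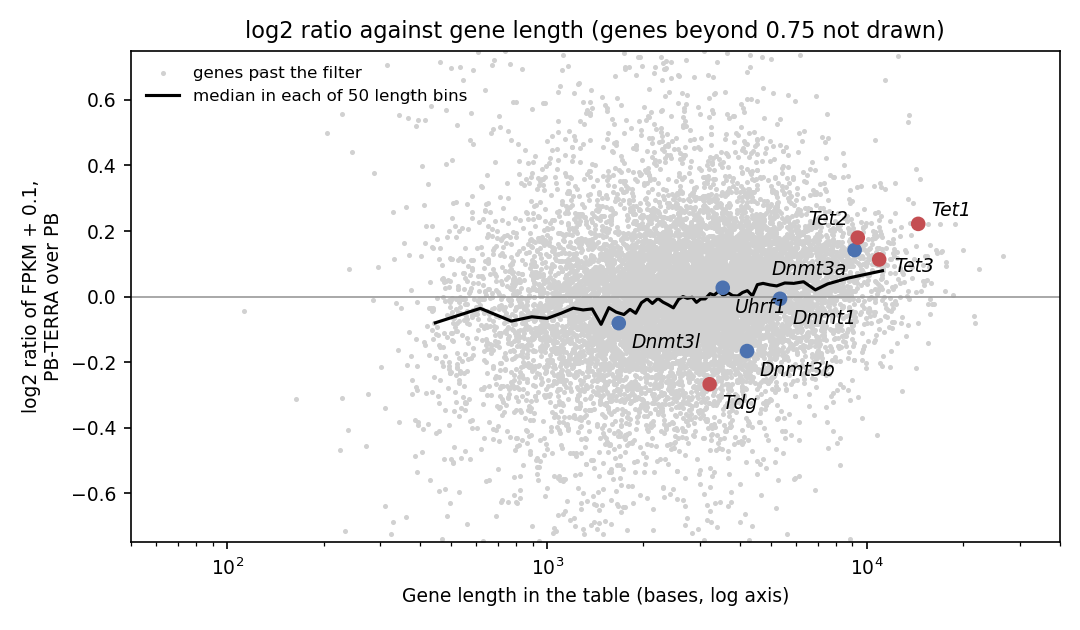
log2 ratio of FPKM + 0.1, PB-TERRA over PB, against gene length in bases (log axis) for genes past the filter (grey points; 234 genes beyond 0.75 in either direction are not drawn), with the median of each of 50 length bins (black line) and the 9 members (writers and cofactors blue, erasers red). The median is -0.080 in the shortest bin and 0.079 in the longest, and Tet1, Tet2, Tet3 and Dnmt3a lie above the line while Dnmt3b and Tdg lie below it.

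The bin of Tet1 and Tet3 had a median log2 ratio of 0.079, and that of Tet2 and Dnmt3a one of 0.057. With these taken off, the log2 ratio was 0.14 for Tet1, 0.12 for Tet2, 0.085 for Dnmt3a and 0.034 for Tet3. In their bins, 11.8% of genes had a ratio at least as high as that of Tet1, 13.0% as that of Tet2, 22.4% as that of Dnmt3a and 40.2% as that of Tet3. Dnmt3b was at -0.18 after the median of its bin (0.018) was taken off, and 10.9% of its bin had a ratio as low or lower. For Dnmt3l the bin median was -0.047, which left -0.034, and its counting interval then included 0. The directions of Tet1, Tet2, Dnmt3a and Dnmt3b were thus the same within genes of like length.

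Tdg, the glycosylase gene (GRCm38 chr10:82629828-82650799, plus strand), needs its own account, because near-identical copies of it exist. It had only 3.86 FPKM in PB mESCs and 3.19 FPKM in PB-TERRA mESCs, from 297 and 246 reads, and its log2 ratio was -0.27 (95% interval -0.52 to -0.026). The table holds a further row, Gm9855, which has GO terms for DNA glycosylase activity and is a copy of Tdg (GRCm38 chr10:42054113-42055306, minus strand) that GENCODE lists as a processed pseudogene and RefSeq as a transcribed pseudogene. Gm9855 had 87.66 FPKM in PB mESCs and 85.40 FPKM in PB-TERRA mESCs, from 6042 and 5902 reads. Tdg thus held 4.69% of the reads of the pair in PB (exact 95% interval 4.18 to 5.23) and 4.0% in PB-TERRA (3.53 to 4.52).

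Over 1191 aligned bases, the coding sequence of Tdg and the annotated Gm9855 transcript differ at 9 bases and are 99.2% identical. The 60 bases of the coding sequence with the most differences, from base 1114 to base 1173 counted from the start codon, are shown to make this visible, with the 4 differing bases in capitals (GENCODE M21 on GRCm38, 5′ to 3′).
Tdg: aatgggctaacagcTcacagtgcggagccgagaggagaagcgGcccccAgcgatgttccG
Gm9855: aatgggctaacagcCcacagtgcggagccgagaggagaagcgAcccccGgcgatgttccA

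How the authors' counting divided the reads from such shared stretches is not stated. Of the 50-base stretches of the longest coding transcript of Tdg, 57.1% also occur in other annotated genes, 47.4% in the pseudogene Tdg-ps and 25.4% in Gm9855. The row of Gm9855 in the table has a length of 2896 bases and the GENCODE transcript compared here has 1194, so the overlap with that row itself was not measured. The level of Tdg alone and its difference are uncertain for this reason. No row was found for Tdg-ps, so a division of reads with it could not be checked. Summed over Tdg and Gm9855, which does not depend on the division between these rows, there were 6339 reads in PB mESCs against 6148 reads in PB-TERRA mESCs, with a log2 ratio of -0.047 (95% interval -0.098 to 0.0034). The interval of the sum included 0. None of the 50-base stretches of Dnmt1, Dnmt3a, Dnmt3l, Tet1, Tet2 or Tet3 occurred in another annotated gene (0%).

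The pathway around these enzymes was described with 83 further genes in 8 roles, of which 81 are in the table and 76 passed the filter. As over all genes, the directions were mixed. With the deposited scaling, 36 of the 76 genes were higher and 40 lower in PB-TERRA. Their median log2 ratio was -0.0042, beside -0.0044 over all genes past the filter. The interval lay above 0 for 16 and below 0 for 13, beside 18.3% and 17.4% of all genes, and it included 0 for 47. The whole list was not counted at the same summed FPKM, a scaling that raises every log2 ratio by 0.038. None of the 76 genes (0) reached an absolute log2 ratio of 1 and 2 reached 0.5, beside 0.913% and 4.67% of all genes. The counts for single roles, each of at most 14 genes, are to be read against the same shares. They were recomputed under 4 other ways of processing. These were the same summed FPKM, the median of all genes set to 0, genes of like length taken off, and genes of like GC content and length taken off. The last was chosen after the data were seen. The median set to 0 and the correction for length were planned for the whole list, and the same summed FPKM was planned for the members only.

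**Figure D4:**
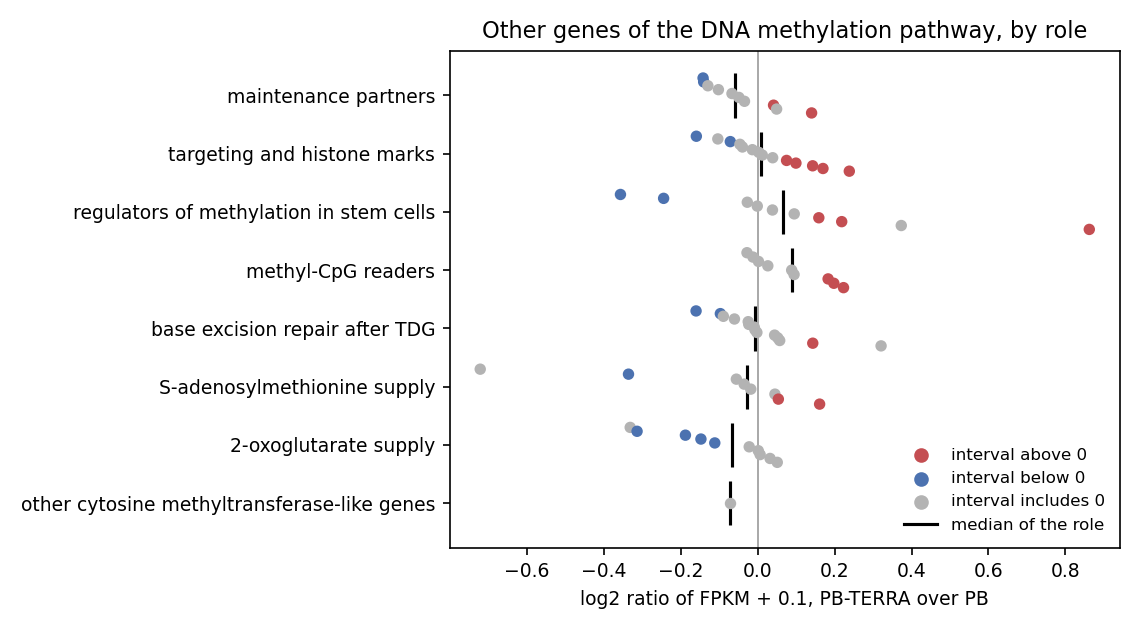
log2 ratio of FPKM + 0.1, PB-TERRA over PB, for the 76 further genes of the pathway past the filter, by role; each point is a gene, coloured by its 95% counting interval (red above 0, blue below 0, grey including 0), and black bars are the medians of the roles. The points of every role except the last, which holds a single gene, lie on both sides of 0.

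Partners of maintenance methylation were lower in 7 of 10 genes, with a median log2 ratio of -0.057, and the interval excluded 0 for 4, 2 in each direction, beside 35.7% of all genes. Hells, the remodelling enzyme that opens nucleosomes for DNMT1, was the highest, with 87.04 FPKM in PB mESCs and 95.95 FPKM in PB-TERRA mESCs (log2 ratio 0.14, 95% interval 0.092 to 0.19). Cdca7l, a relative of its activator Cdca7, was the lowest, at 13.60 and 12.32 FPKM (-0.14, 95% interval -0.28 to -0.0034), a call that was lost under all 4 of the other ways. Pcna, the replication clamp, was the most abundant with 214.21 and 209.23 FPKM (-0.034, 95% interval -0.085 to 0.019). Under the other ways of processing the median of the role ran from -0.062 to -0.015. The interval then lay above 0 for 1 to 3 genes and below 0 for 1 or 2.

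Of the 14 genes for targeting and histone marks past the filter, 5 had an interval above 0 and 2 below, with a median of 0.0078. Zfp57, the zinc finger protein that protects methylation at imprinted regions, had 134.30 FPKM in PB mESCs and 158.45 FPKM in PB-TERRA mESCs (log2 ratio 0.24, 95% interval 0.19 to 0.29). Its corepressor Trim28, the most abundant gene of the role, was lower, at 536.30 and 480.33 FPKM (-0.16, 95% interval -0.18 to -0.14). The 2 proteins work in 1 complex, and their transcripts differed in opposite directions. The calls of both held under all 4 of the other ways, whereas the number above 0 ranged from 3 (genes of like length) to 6, and the median turned to -0.030 against genes of like length and -0.012 against genes of like GC content and length.

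Regulators of methylation in stem cells were higher in 6 of 10 genes, with a median log2 ratio of 0.067, an interval above 0 for 3 and below 0 for 2. Gadd45g, a stress-response gene linked to demethylation, had 2.42 FPKM in PB mESCs and 4.48 FPKM in PB-TERRA mESCs, from 58 and 108 reads (log2 ratio 0.86, 95% interval 0.42 to 1.38). Prdm14, a repressor of Dnmt3b in mESCs, had 6.30 and 4.90 FPKM, from 387 and 302 reads (-0.36, 95% interval -0.58 to -0.14). Dnmt3b and its repressor Prdm14 were thus both lower in PB-TERRA. Lin28a, an RNA-binding protein, was the most abundant, at 148.09 and 148.02 FPKM (-0.00068, 95% interval -0.036 to 0.036). The number above 0 in this role was 4 to 6 under the other ways of processing, and Lin28a itself was above 0 at the same summed FPKM (0.037) and against genes of like GC content and length (0.037).

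The list of methyl-CpG readers holds MBD and ZBTB family genes, and whether each binds methylated CpG was not checked. Of its 9 genes past the filter 7 were higher, with a median log2 ratio of 0.089. The interval lay above 0 for 3 and below 0 for none (0). Over all genes 48.6% were higher, and the interval lay above 0 for 18.3% and below 0 for 17.4%. Zbtb33, which encodes Kaiso, was the highest, with 6.17 FPKM in PB mESCs and 7.22 FPKM in PB-TERRA mESCs (log2 ratio 0.22, 95% interval 0.085 to 0.37). Mbd3, a subunit of the NuRD complex, was both the most abundant and the lowest in ratio, at 94.44 and 92.66 FPKM (-0.027, 95% interval -0.095 to 0.042). Against genes of like length 2 of the listed genes were above 0. Against genes of like GC content and length the call of Zbtb33 was lost (0.12, 95% interval -0.017 to 0.27) and Mbd3 turned to 0.068, above 0.

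The list for base excision repair holds genes that act after TDG, and also other glycosylases and a deaminase. The interval included 0 in 11 of 14 cases, and the median was -0.0077. Lig3, a DNA ligase, had 25.57 FPKM in PB mESCs and 22.88 FPKM in PB-TERRA mESCs (log2 ratio -0.16, 95% interval -0.23 to -0.092). Neil1, a glycosylase, had 2.87 and 3.61 FPKM from 75 and 95 reads (0.32, 95% interval -0.11 to 0.79), a difference within counting error. Apex1, the main endonuclease at abasic sites, had 212.36 and 212.11 FPKM (-0.0017, 95% interval -0.051 to 0.050). The median of the role turned to between 0.026 and 0.030, and the number above 0 went from 1 to 3, under each of the other ways except the median set to 0. Apex1 turned to 0.052, above 0, against genes of like GC content and length.

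S-adenosylmethionine is the methyl donor of the writers, and 2-oxoglutarate is a substrate of the TET enzymes. Of 8 genes for the first past the filter, 2 had an interval above 0 and 1 below, beside 18.3% and 17.4% of all genes. Mat2a, which makes S-adenosylmethionine in most cells, had 211.75 FPKM in PB mESCs and 219.84 FPKM in PB-TERRA mESCs (log2 ratio 0.054, 95% interval 0.021 to 0.088), and Mtr, methionine synthase, had 10.30 and 11.53 FPKM (0.16, 95% interval 0.045 to 0.28). The call of Mat2a was lost against genes of like GC content and length (0.022). The gene below 0 was Ahcy, which breaks down S-adenosylhomocysteine and was named after its values were seen, at 7.23 and 5.71 FPKM (-0.34, 95% interval -0.55 to -0.13). Gnmt, a methyltransferase of glycine, had the lowest ratio, -0.72 from 31 and 18 reads, with an interval from -1.71 to 0.096. Of 10 genes around 2-oxoglutarate, 4 had an interval below 0 and none (0) above, with a median of -0.066. These 4 were Idh1, Idh2, Sdhb and Fh1, named after their values were seen, with log2 ratios from -0.31 to -0.11. The call of Fh1 was lost under 3 of the other ways of processing, against genes of like length among them (-0.064, 95% interval -0.16 to 0.035), and that of Sdhb against genes of like GC content and length (-0.091), which left 2. The first pair encodes isocitrate dehydrogenases, which make 2-oxoglutarate, and the others act later in the citric acid cycle. Glud1, which makes 2-oxoglutarate from glutamate, was the most abundant at 127.63 and 127.80 FPKM (0.0019, 95% interval -0.038 to 0.043). D2hgdh, a dehydrogenase of 2-hydroxyglutarate, had the lowest ratio, -0.33, with an interval that included 0. Trdmt1, which resembles the DNA methyltransferases but methylates transfer RNA, had 4.09 and 3.89 FPKM (-0.071, 95% interval -0.33 to 0.19).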

How the data were processed

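RNA of PB and PB-TERRA mESCs was sequenced by the authors on BGISEQ500, 1 library for each. The submitters' processing notes name HISAT, Cufflinks and mm9, with no version. The deposited table gives 1 expression value per gene and library, read here as FPKM from its steps, rounded by the authors to 2 decimals with a floor of 0.01; its header names no unit. The table also holds the authors' own comparison (log2 fold change, p-value and adjusted p-value, a score not limited to 1). These deposited log2 fold changes, p-values and scores were not used.

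Ratios were taken on the whole table. Reads were estimated as FPKM times length, less 114 (PB) and 113 (PB-TERRA) bases, times depth, where depth and bases off were fitted to 1183 and 1232 low values; why the length must be reduced is not known. The scripts were tested on simulated data. The members, gene lists and threshold were chosen with earlier results of these data known. Named are the 9 members, Rpl19, Rplp0 and, in each role, the genes with the largest and smallest ratio and the highest level, of which 1 is not reported here. Idh1, Idh2, Sdhb, Fh1, Ahcy, Dppa2, Dppa3, Dppa4, Mycn, Gm9855 and the genes by GO term were named after their values were seen. Whsc1 was read as Nsd2 by its NCBI Gene number, and for Dnmt3c, Nnmt and Tcstv1 no row was found. GENCODE M21 and RefSeq positions are on GRCm38, not mm9. GC content was found for 94.3% of genes past the filter. Intervals were computed in scipy 1.17.1 and tables handled in pandas 2.3.3 and numpy 2.4.6, under Python 3.11.15, with figures drawn in matplotlib 3.10.9.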

Additional observations from a re-analysis of the deposited data

How the results depend on the processing

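No paired analysis was possible because each condition has 1 library, and none could be left out. Over pseudocounts of 0.01 and 1 FPKM, other scalings, filters and a threshold of 0.5, and over corrections for length and, chosen after the data were seen, for GC content with length, 103 of 125 recomputed values lay within the counting interval of the gene, within 1.5 times the count or, for the median of a group, within the median of the intervals of its genes. That last range is wide: the median of the erasers went from 0.15 to 0.079 against genes of like length, and the median of the writers and cofactors turned from -0.0067 to 0.031 at the same summed FPKM and to 0.020 against genes of like GC content and length. The tally therefore says little on robustness. Pseudocounts could hardly move the more abundant genes, and Tdg at -0.047, with the reads of Gm9855 added, still lay within its interval. Scaling to the same summed FPKM moved Tet1 to 0.26 and Dnmt3b to -0.13, and it turned Dnmt1 from -0.0067 to 0.031. In a count added after the data were seen, this scaling left 1 member with an interval below 0 (Dnmt3b, without Dnmt3l and Tdg) in place of 3, and 4 above 0 (with Uhrf1) in place of 3. Taking off genes of like length moved Tet1 to 0.14 and Tet2 to 0.12. Taking off genes of like GC content and length moved Tet1 to 0.12, Tet2 to 0.13 and Dnmt3l to -0.017, and Dnmt1 turned to 0.020. The log2 difference of Tet1 to Dnmt3b went from 0.39 to 0.33 and 0.25 under these 2 corrections, added after the data were seen. Under that correction the number of members with an interval above 0 went from 3 to 4, with Uhrf1, and under both corrections the number below 0 went from 3 to 2, without Dnmt3l. It was also 2 with the reads of Tdg and Gm9855 summed, an alternative chosen after the data were seen.

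Shares of estimated reads, which favour long genes by construction, differed from shares of FPKM. Among the methyltransferases they were 33.8% and 35.1% for Dnmt1 in PB and PB-TERRA, 15.4% and 17.8% for Dnmt3a, and 50.7% and 47.1% for Dnmt3b. Among the TET genes they were 77.5% and 78.1% for Tet1, 20.2% and 19.8% for Tet2, and 2.25% and 2.11% for Tet3.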

Other observations

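The deposited table also carries GO terms, whose genes overlap in part with the role lists. With the members left out, 22 genes carry a process term for DNA methylation, and 20 of them passed the filter. Of these, 14 were higher in PB-TERRA, 5 lower and 1 equal, with a median log2 ratio of 0.046. The interval lay above 0 for 6 of the 20 and below 0 for 1, beside 18.3% and 17.4% over all genes. The 6 were Zfp57, Grhl2, Med1, Ctcf, Ezh2 and Usp7, and the 1 was Tdrkh, all named here after their values were seen, and of these Zfp57 and Usp7 are also in the role lists. Over the 4 other ways of processing the number above 0 ranged from 6 to 11 and the number below from 0 to 1. The call of Usp7 was lost against genes of like length (8.8e-05) and of like GC content and length, that of Ezh2 against the latter (0.060), and that of Tdrkh at the same summed FPKM (-0.23) and against genes of like length (-0.23). The term for DNA demethylation holds 3 genes besides members. They are given by this annotation only, and whether any of them acts on methylcytosine was not checked. Hap1 was above 0 (0.20, 95% interval 0.078 to 0.33), Fto below 0 (-0.11, 95% interval -0.22 to -0.012) and Alkbh2 had an interval that included 0, and the call of Fto was lost at the same summed FPKM (-0.076). Ctcf, which binds unmethylated sites in imprinting control regions, had 59.29 FPKM in PB mESCs and 63.36 FPKM in PB-TERRA mESCs (log2 ratio 0.096, 95% interval 0.043 to 0.15). Ezh2, the Polycomb methyltransferase of histone H3, had 52.17 and 55.21 FPKM (0.082, 95% interval 0.013 to 0.15).

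Dppa2 and Dppa4, partner genes that keep developmental promoters unmethylated in mESCs, were named after their values were seen, as were Dppa3 and Mycn of the same role. Dppa2 had 73.46 FPKM in PB mESCs and 85.50 FPKM in PB-TERRA mESCs (log2 ratio 0.22, 95% interval 0.15 to 0.29), and Dppa4 had 74.29 and 82.97 FPKM (0.16, 95% interval 0.084 to 0.24). Dppa3, which keeps UHRF1 off chromatin, had 5.79 and 7.53 FPKM from 101 and 132 reads, with an interval from -0.0019 to 0.77 that included 0 but lay above 0 under all 4 of the other ways. Mycn, a transcription factor of the Myc family, was lower, at 108.38 and 91.50 FPKM (-0.24, 95% interval -0.29 to -0.19).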
